A study of Caenorhabditis elegans with 6 samples.

Results

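The PUF family of RNA-binding proteins of *Caenorhabditis elegans* was followed from mixed-age embryos to fed first-stage larvae (L1). Members were chosen by gene symbol: *puf-3*, *puf-5*, *puf-7*, *puf-8*, *puf-9*, *puf-11*, *puf-12*, *fbf-1* and *fbf-2* each had a probe set that named 1 gene, which makes 9 of 17118 genes measured. All worms were the wild-type strain N2 raised on HB101 *Escherichia coli*, without a mutation or transgene. For the L1 group (n = 3 arrays), eggs from bleached adults were left for 24 h in M9 at 20 °C to hatch, and the synchronous larvae were fed HB101 at 10 mg/mL for 3 h at 10 worms per µL. For the embryo group (n = 3 arrays), bleaching of adults grown on plates gave embryos of mixed ages. Values are RMA expression values on the log2 scale, and a difference is always fed L1 minus mixed embryo, so that 1 log2 unit is a doubling. Per the labels, the arrays of embryos had been part of an older series and were analysed again, so stage, feeding, hatching in buffer and array set cannot be told apart. The titles and stage labels of the L1 samples name larvae, although their source field mentions embryos.

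PUF proteins are named after Pumilio of *Drosophila* and FBF of *C. elegans*. They bind short elements that begin with UGU in the 3′ untranslated regions of messenger RNAs, and most repress their targets, in part by bringing in the CCR4-NOT complex, which shortens poly(A) tails. In the worm germline they hold stem cells in an undifferentiated state, direct the switch from sperm to oocytes and keep maternal messages silent in oocytes. Others act in somatic cells, and *puf-12* belongs to a divergent branch whose yeast and human relatives work in the nucleolus on ribosome assembly.

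The family did not move as 1 block. By limma (Benjamini-Hochberg adjusted p under 0.05 over all genes), 6 members fell, 3 rose and 0 did not pass. Over all genes, 31.2% were lower and 33.2% higher by the same rule. The 4 largest changes were falls of more than 3 log2 units, in *puf-3*, *puf-5*, *puf-7* and *puf-11*, the members known from oocytes. Falls of at least 3 log2 units made up 3.37% of all genes. The median difference was -1.59 for the members and 0.05 for all genes. The L1 and embryo arrays were apart, with no overlap, for 9 of 9 members, against 70.6% of all genes. These arrays hold RNA of whole animals, so fewer cells of a type and less RNA per cell cannot be told apart.

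**Figure D1:**
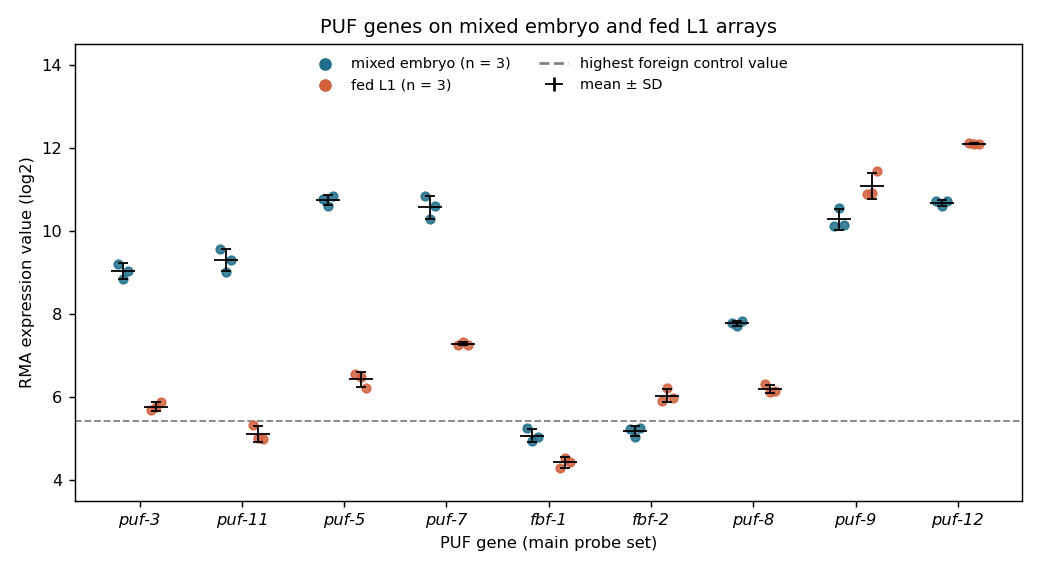
RMA expression values (log2) of the main probe set of each PUF gene on 3 mixed embryo arrays (blue) and 3 fed L1 arrays (orange), with mean ± SD. The dashed line is the highest value of foreign control probe sets, 5.43. The oocyte members drop from embryo means of 9.03 to 10.74 to L1 means of 5.11 to 7.28, while *puf-9* and *puf-12* are above 10 in both stages and higher in L1.

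The arrays differed little within a stage. Across probe sets (which are not independent of each other) the correlation between arrays was r = 0.9925 to 0.9967 within a stage and r = 0.7752 to 0.7905 between stages. Within L1 the median SD over genes was 0.11, and within embryos 0.12. As a background, 32 probe sets read bacterial and yeast transcripts foreign to the samples, and their highest value, 5.43, is called the foreign control level. Separate cultures are not named in the labels, so p-values rest on the spread among these arrays, which may be technical.

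*puf-5* encodes a protein of growing oocytes that, with PUF-6 and PUF-7, represses the Notch receptor message *glp-1*. It lay at 10.77, 10.61 and 10.83 on embryo arrays A, B and C and at 6.55, 6.49 and 6.22 on L1 arrays 1, 2 and 3. The lowest embryo array was thus more than 4 log2 units above the highest L1 array. It fell by 4.32 (SE 0.11, limma adjusted p = 3.22e-10, n = 3 per stage), a 19.9-fold difference, and 0.90% of all genes fell by more. The only probe set that names *puf-5* has a design that allows matches to related sequences, so the value may not be of *puf-5* alone.

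*puf-7* and *puf-6* encode near-identical proteins, and *puf-10* is annotated as a pseudogene of the same group. The probe set that names *puf-7* alone, of a design that allows matches to related sequences, read 10.83, 10.28 and 10.59 in embryos and 7.26, 7.32 and 7.26 in L1. It fell by 3.29 (SE 0.13, limma adjusted p = 4.99e-09), which is 9.77-fold. L1 values varied little (SD 0.036, with 8.66% of genes as tight or tighter), whereas 90.7% of genes had an embryo SD at or under its 0.27. A probe set naming *puf-7* and *puf-6* together fell by 3.26 (SE 0.12), and a further one naming *puf-7*, *puf-6* and *puf-10* fell by 3.23 (SE 0.14). The 3 estimates lay within 1 SE of each other, but they may read the same messages, so the share of each gene is uncertain.

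*puf-3* and *puf-11* encode close paralogs that act in late oogenesis and the early embryo. *puf-3* lay at 9.21, 8.84 and 9.04 in embryos and at 5.67, 5.75 and 5.87 in L1, just above the foreign control level. It fell by 3.26 (SE 0.11, limma adjusted p = 1.81e-09), a 9.61-fold difference, on a probe set whose design allows related matches. *puf-11* lay at 9.56, 9.02 and 9.31 in embryos and at 5.33, 5.02 and 4.98 in L1, where all 3 arrays were within the range of foreign controls. The measured difference was -4.19 (SE 0.15, limma adjusted p = 2.05e-09). With the L1 arrays set no lower than the highest foreign control of the same array, *puf-11* was at least 15.5-fold lower in L1.

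*fbf-1* and *fbf-2* encode the near-identical proteins that maintain germline stem cells and repress *fem-3* and *gld-1*. Both were dim throughout. *fbf-1* read 5.25, 4.94 and 5.03 in embryos and 4.29, 4.54 and 4.44 in L1, all within the foreign control range. The difference of -0.65 (SE 0.11, limma adjusted p = 0.000366) passed the test, but no fold is given since both groups are at background. With ribosomal protein centring, which shifts the differences of all genes alike, it was -1.001. A probe set naming both *fbf* genes, also at foreign control level, differed by -0.05 and did not pass. Among 5473 genes at this level on all arrays, 5.37% were called lower and 16.6% higher, and 1.75% were called lower by at least 0.5 log2 units.

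*fbf-2* read 5.24, 5.05 and 5.25 in embryos, within the foreign control range, and 5.91, 6.21 and 5.97 in L1, above it. It rose by 0.85 (SE 0.11, limma adjusted p = 4.34e-05), at least 1.59-fold. The probe set behind this value may match related sequences, and the other *fbf-2* probe set, which is not of that design, did not pass. It read 5.37, 5.56 and 5.41 in embryos and 5.55, 5.79 and 5.52 in L1, with overlapping stages and a difference of 0.17 (SE 0.10, limma adjusted p = 0.175 over all probe sets). A probe set naming both *fbf* genes differed by -0.05 (SE 0.12, limma adjusted p = 0.718). The rise of *fbf-2* thus rests on 1 of 2 probe sets. It was 0.49 with ribosomal protein centring and 0.51 as the mean of both, and passed limma in each case.

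*puf-8* encodes a Pumilio-like protein of the germline that limits *pal-1* and *let-60* and works beside FBF in the switch from sperm to oocytes. It read 7.78, 7.72 and 7.84 in embryos and 6.31, 6.11 and 6.15 in L1, all above the foreign control level and without overlap. It fell by 1.59 (SE 0.09, limma adjusted p = 8.80e-08), a smaller change than those of the oocyte members. Only 1 probe set reads *puf-8*, and its design allows related matches.

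*puf-9* is the other Pumilio-like gene, known from epidermis and neurons, where it represses the heterochronic transcription factor gene *hbl-1*. Its main probe set read 10.12, 10.56 and 10.15 in embryos and 10.90, 10.90 and 11.44 in L1. The stages did not overlap, but the L1 SD of 0.31 was wide, larger than that of most genes, with L1 array 3 above the others. The rise of 0.81 (SE 0.17, limma adjusted p = 0.0015) ranged from 0.63 to 0.95 when each array was left out in turn and passed each time. It was 0.45 with arrays centred on ribosomal protein genes and 0.45 as the mean of both its probe sets, with limma adjusted p of 0.0261 and 0.0298. The other *puf-9* probe set read 6.91, 6.71 and 6.72 in embryos and 7.10, 6.30 and 7.21 in L1, with L1 array 2 below all embryo arrays, and differed by 0.09 (SE 0.21, limma adjusted p = 0.737). Here too the call rests on 1 of 2 probe sets.

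*puf-12*, of the nucleolar branch, was high in both stages. Its main probe set read 10.71, 10.59 and 10.71 in embryos and 12.11, 12.10 and 12.10 in L1, an L1 SD of 0.0079 that 0.51% of genes matched or went under. It rose by 1.43 (SE 0.08, limma adjusted p = 1.00e-07), a 2.69-fold difference, and 12.2% of all genes rose by more. The second probe set, designed to allow related matches, read 8.61, 8.72 and 8.50 in embryos and 9.37, 9.98 and 9.71 in L1. It rose by 1.08 (SE 0.15, limma adjusted p = 9.21e-05), so *puf-12* was the member whose rise held in both of its probe sets.

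**Figure D2:**
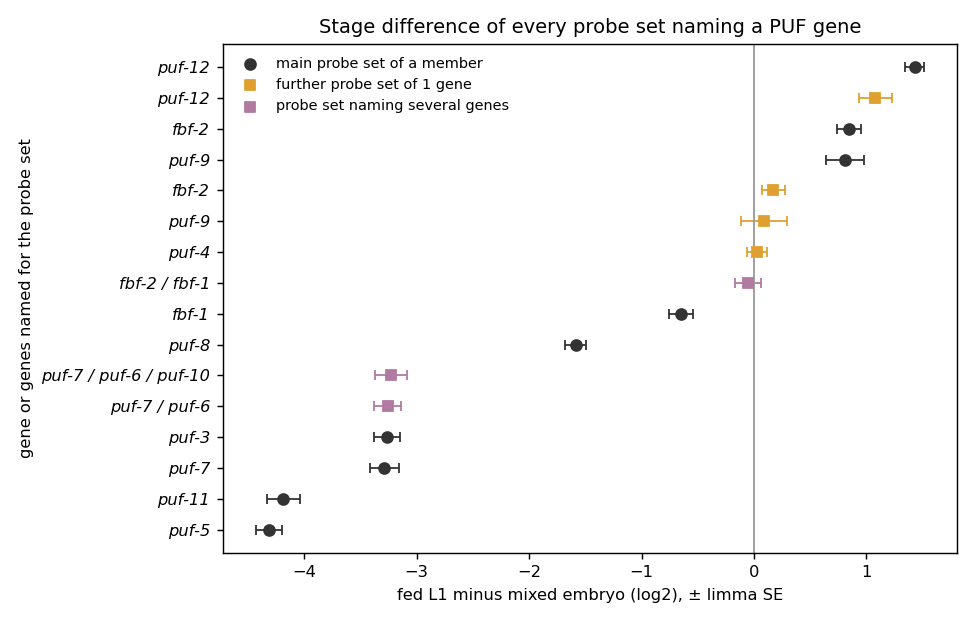
Fed L1 minus mixed embryo (log2, ± limma SE) for the 16 probe sets that name a PUF gene, with main probe sets of members as black circles. Probe sets naming *puf-7*, alone or with its relatives, changed by -3.29 to -3.23. The further probe sets of *fbf-2* and *puf-9*, at 0.17 and 0.09, lie near 0, unlike their main probe sets.

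Of all probe sets, 63.3% were called in either direction. One PUF probe set outside the members names *puf-4*, annotated as a pseudogene. It lay at a mean of 4.53 in embryos and 4.56 in L1, at the foreign control level, and differed by 0.03 (SE 0.09, limma adjusted p = 0.816).

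Related members were then set against each other within each array, which needs no scaling between arrays. A total of 4 pairs were compared with an exact 2-sided permutation test over arrays, for which 0.1 is the smallest p that 3 against 3 arrays allow, so no pair could pass 0.05. All pairs reached this smallest permutation p of 0.1, also after adjustment over the pairs. Only the shift between stages is compared, since different probe sets have different sensitivities.

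The value of *puf-3* minus *puf-11* was -0.27 ± 0.08 in embryos and 0.66 ± 0.28 in L1 (SD, n = 3), a shift of 0.92 that goes with the larger measured difference of *puf-11*, whose L1 arrays were at background. For *puf-5* minus *puf-7* the value was 0.17 ± 0.20 in embryos and -0.86 ± 0.17 in L1, a shift of -1.03. The *puf-7* probe set, whose design allows related matches, stayed well above the foreign control level in L1. Those naming *puf-7* with relatives had L1 means of 7.14 (with *puf-6*) and 5.79 (with *puf-6* and *puf-10*). How far related matches take part in this shift was not tested.

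The shift was -1.50 for *fbf-1* minus *fbf-2*, from -0.11 ± 0.12 in embryos to -1.60 ± 0.08 in L1, and the mean of both *fbf-2* probe sets gave -1.16. Since *fbf-1* was at the foreign control level on all arrays and *fbf-2* on all embryo arrays, the size of this shift is not a measure of either gene. The widest shift, -2.39, was that of *puf-8* minus *puf-9*, the pair of Pumilio-like genes (-2.03 with the mean of both *puf-9* probe sets). On the main probe sets it went from -2.50 ± 0.29 in embryos to -4.89 ± 0.36 in L1. The L1 and embryo arrays did not overlap in these values, which for the *fbf* pair are differences at background.

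**Figure D3:**
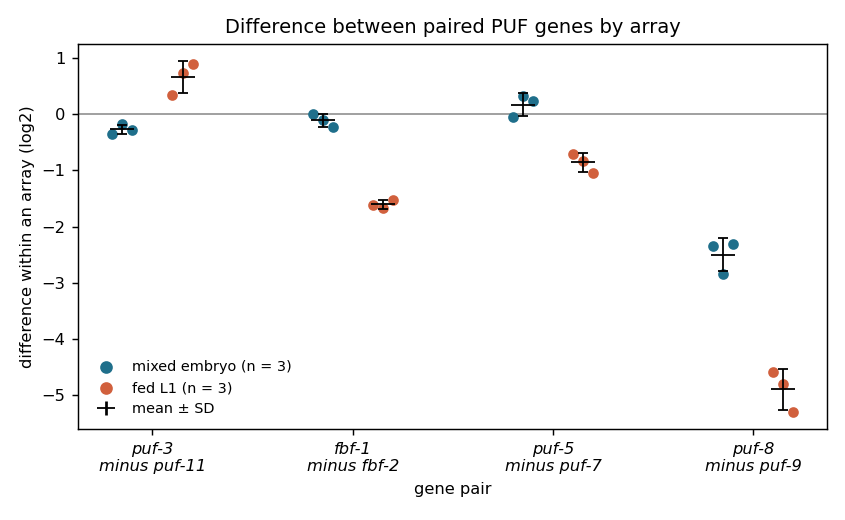
Log2 value of one PUF gene minus that of another on the same array, for 4 pairs, on mixed embryo (blue) and fed L1 (orange) arrays, with mean ± SD (n = 3 per stage). The stages are apart in each pair, with shifts from -2.39 (*puf-8* minus *puf-9*) to 0.92 (*puf-3* minus *puf-11*).

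PUF proteins work with partner proteins that sharpen or change their choice of messages. Of 13 listed partners 10 were measured, and 9 of these fell by limma and 0 rose, also 0 at an unadjusted p under 0.05, while 1 was not called. Their median was -1.51. Over all genes, 31.2% were called lower and 33.2% higher. The nanos genes, whose *Drosophila* relative binds RNA together with Pumilio, fell to different extents. *nos-2*, the maternal nanos gene of primordial germ cells, read 9.99, 9.29 and 9.75 in embryos and 4.54, 4.51 and 4.55 in L1, at foreign control level, and was at least 20.3-fold lower in L1 (limma adjusted p = 7.59e-10). *nos-1*, which is transcribed in primordial germ cells, read 8.98, 8.55 and 8.80 in embryos and 6.87, 6.27 and 6.68 in L1, a difference of -2.17 (SE 0.16). *nos-3*, which binds FBF, fell by 0.64 (SE 0.09) from 10.33 ± 0.06 to 9.69 ± 0.07.

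*gld-3*, a KH-domain gene whose product opposes FBF, read 8.49, 7.93 and 8.18 in embryos and 4.90, 4.89 and 4.67 in L1. It was at least 7.30-fold lower in L1 (limma adjusted p = 6.94e-09), and its other probe sets were also called lower, with L1 means of 4.30 and 5.39 around the foreign control level. The poly(A) polymerase gene *gld-2*, whose product GLD-3 activates, differed by -0.09 (SE 0.09, limma adjusted p = 0.419) on its main probe set. Of its 4 further probe sets 2 were called higher, by 0.52 and, at foreign control level, by 0.38, so *gld-2* had no common direction.

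Messages reported to be bound or repressed by worm PUF proteins were mostly lower as well. Of 16 such genes, 12 were called lower and 2 higher (31.2% and 33.2% over all genes), and the median was -1.85. *gld-1*, an FBF target whose product drives entry into meiosis, read 10.96, 10.40 and 10.48 in embryos and 5.54, 5.90 and 5.84 in L1. The difference was -4.85 (SE 0.16, limma adjusted p = 1.19e-09), while its other probe set fell from 6.79 to 5.22, at the foreign control level in L1. *pal-1*, the caudal homeobox gene and a PUF-8 target, fell by 3.13 (SE 0.10), with -3.11 and -4.06 on its further probe sets.

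*glp-1*, the germline Notch receptor gene and PUF-5 target, fell by 2.52 (SE 0.17), and *fem-3*, the sex determination gene through which FBF was found, fell by 1.44 (SE 0.10). *hbl-1*, the reported target of PUF-9, read 12.40, 12.72 and 12.56 in embryos and 10.02, 9.28 and 9.98 in L1. The difference was -2.80 (SE 0.18, limma adjusted p = 2.37e-07), and its other probe set fell too, to an L1 mean of 4.93 at foreign control level. L1 array 2 was the lowest for *hbl-1*, and array 3 the highest for *puf-9*. The targets that rose were the MAP kinase gene *mpk-1*, by 0.98 (SE 0.09, and 0.66 on its other probe set), and *egl-4*, a cGMP-dependent protein kinase gene and FBF target in sensory neurons, by 0.89 (SE 0.12, and 0.80).

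The machinery of poly(A) shortening and decapping, through which PUF proteins act, changed less. Of 15 genes measured out of 18 listed, 11 were lower and 3 higher in L1 (31.2% and 33.2% over all genes), around a median of -0.48. *ccr-4*, a catalytic deadenylase subunit, fell by 2.17 (SE 0.10), and its other probe set fell from 6.18 to 5.13, at foreign control level in L1, while *cgh-1*, a DEAD-box helicase gene of germline RNA granules, fell by 1.95 (SE 0.16). The largest rises were in *xrn-1*, the exonuclease gene that degrades decapped RNA, by 1.75 (SE 0.11), and in *pab-1*, a poly(A)-binding protein gene, by 0.86 (SE 0.10). The *pab-1* probe sets differed, with 0.61 and 0.17 on the others.

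Genes of other RNA-binding proteins known from the maternal germline were counted beside the family. Of 16 listed genes, 13 were lower and 1 was higher in L1 (31.2% and 33.2% over all genes), and the median was -3.47. *mex-6* and *spn-4* had the largest falls, from embryo means of 10.69 and 11.28 to L1 means of 5.32 and 6.03. The exception was *lin-41*, a gene of both oocytes and larval epidermis, which rose by 2.22 (SE 0.11), and by 0.66 on its other probe set.

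The list for nucleolus and ribosome assembly, where relatives of PUF-12 work, went the other way. Of 16 genes measured out of 19 listed, 9 were higher and 3 lower in L1 (33.2% and 31.2% over all genes), and the median was 0.29. *tag-151* and *lpd-7* rose by 1.58 (SE 0.11) and 1.47 (SE 0.10), close to the 1.43 of *puf-12*. *nol-10* and *nol-14* differed by -0.50 (SE 0.15) and -0.46 (SE 0.12), and the call of *nol-10* was lost without L1 array 1 or 3. Centred on ribosomal protein genes, the list had a median of -0.07 with 6 higher and 6 lower. Over all 17118 genes, that centring gave a median of -0.30 with 3900 higher and 9686 lower. By that centring *puf-12* still rose by 1.08, as did *tag-151* by 1.23 and *lpd-7* by 1.12. Without L1 array 1, 1 gene of this list was called lower in place of 3.

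**Figure D4:**
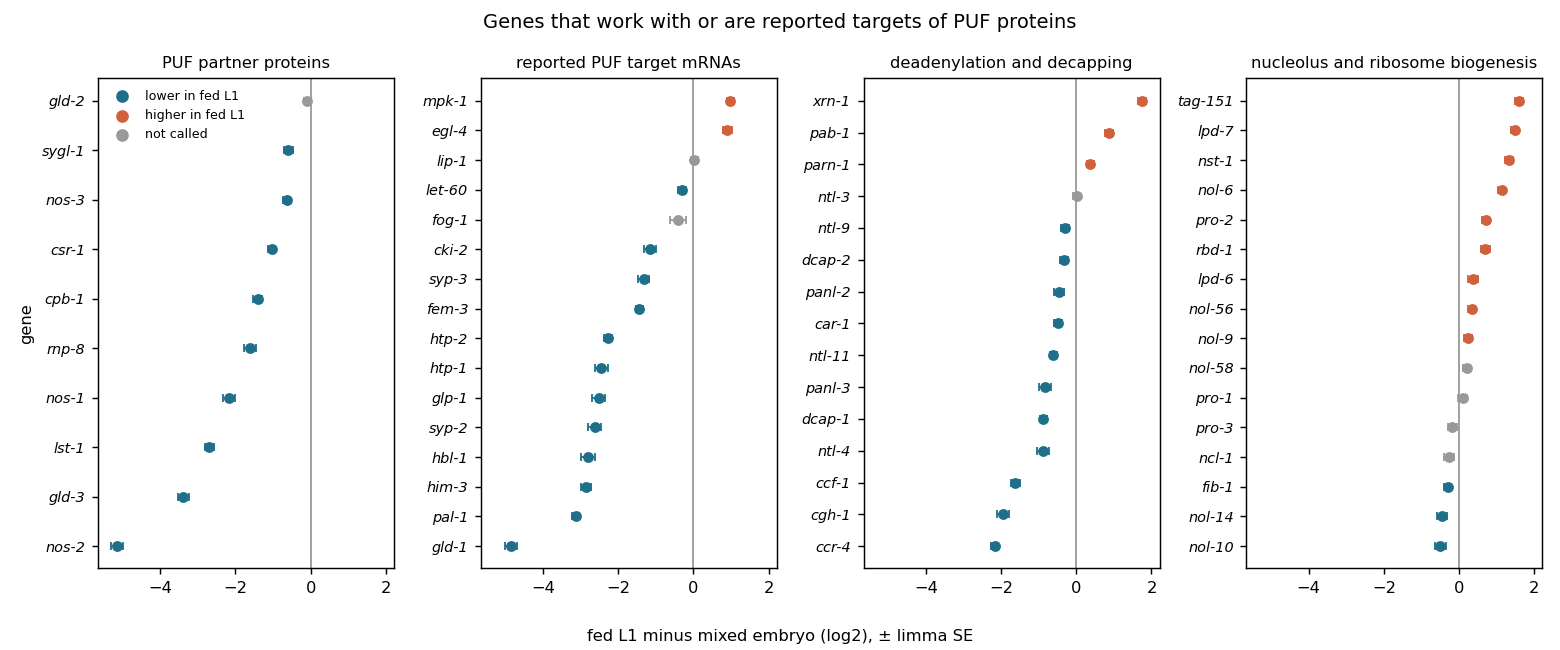
Fed L1 minus mixed embryo (log2, ± limma SE) for genes of 4 lists, coloured by limma call. Most partners (9 of 10 measured) and reported targets (12 of 16) lie left of 0 and passed, deadenylation and decapping genes lie closer to 0, and nucleolar genes lie mostly on the right.

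Marker lists showed what else differed between the samples, beside 31.2% of all genes called lower and 33.2% called higher. Of 10 primordial germ cell and P granule genes 9 fell, with a mean log2 level of 7.51 to 7.87 on embryo arrays and 5.92 to 5.95 on L1 arrays, and 2 were at foreign control level in L1. *glh-1*, a helicase gene of P granules, gave -0.03 on its main probe set and -0.60 on the other. Oocyte and eggshell genes fell in 6 of 8 cases, with means of 7.51 to 7.56 and 5.96 to 6.05. Yolk protein genes, markers of adult intestine, had means of 4.82 to 5.06 in embryos and 4.97 to 5.04 in L1, with 3 of 5 at foreign control level in each stage. By limma 0 of 5 were called, and 0 at an unadjusted p under 0.05, but with ribosomal protein centring 3 were called lower (median -0.30). Sperm genes had means of 4.98 to 5.11 and 5.23 to 5.26, and 7 of 9 were at foreign control level in embryos and 4 in L1. By limma 4 were called higher, but after another quantile normalization 2 were higher and 1 lower. With ribosomal protein centring 2 were higher and 5 lower, so they had no settled direction. The same centring called 9686 of all 17118 genes lower and 3900 higher, with a median of -0.30. The yolk and sperm counts under it are to be read beside this background.

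Early zygotic genes fell in 6 of 7 cases, from means of 6.28 to 6.75 in embryos to 4.91 to 5.00 in L1. At foreign control level were 2 of them in embryos and 5 in L1. The call of *tbx-37* was lost without L1 array 2. The remaining gene, *med-1*, was called higher by 0.39 at low means of 4.44 and 4.83, but not with ribosomal protein centring. Larval intestine genes rose in 6 of 6 cases, from 6.80 to 6.89 in embryos to 11.92 to 11.95 in L1. Neuronal genes rose in 5 of 6 cases, from 8.93 to 9.16 to 11.33 to 11.39. How far these shifts of tissue take part in the changes of the PUF genes was not tested.

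Each member was then matched to the genes with the most similar course over the 6 arrays. Candidates were 10179 non-member genes with a gene class name (letters, hyphen, number), so genes with only sequence names were not searched. Likeness was the root mean square distance between values centred on each gene's own mean. *puf-11* was closest to *pcn-1*, the replication clamp gene (distance 0.07), and to *oma-1*, an oocyte zinc finger gene (0.11). *puf-5* was closest to *smo-1*, the SUMO gene (0.07), and to *meg-1*, a P granule gene (0.10). *puf-3* was closest to *mcm-5*, a replicative helicase gene (0.04), and *fbxc-50* (0.05), and *puf-7* to *fbxb-13* and *btb-8* (both 0.07).

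These 4 members had few near neighbours, with 24 to 117 named genes within 0.2. *fbf-1* and *fbf-2* had 838 and 637 and *puf-8* had 467, so their nearest genes, *dhhc-6* and *ndx-6*, *igdb-2* and *rgef-1*, and *vps-39* and *zipt-2.4*, single out little. *puf-9* had 93, with *nhr-139* (0.11) and *cup-4* (0.11) nearest. *puf-12* was closest to *tald-1*, a transaldolase gene (0.03), and *gcn-1* (0.05), among 544.

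In the WBcel235 annotation 5 members lie on chromosome II, 3 on IV and 1, *puf-9*, on X. *fbf-1* and *fbf-2* are separated by 1 protein-coding gene, *F21H12.3*, which lay at means of 3.95 in embryos and 4.01 in L1 and was not called. Adjacent protein-coding genes moved with some members and against others, where 31.2% of all genes were called lower and 33.2% higher. Both neighbours of *puf-7*, *H12I13.6* beside *fbf-1* and *nspg-3* beside *fbf-2* had no value. Both neighbours of *puf-3* were lower in L1, with differences of -1.57 for *afmd-2* and -0.32 for *dcap-2*, although the other *dcap-2* probe set gave 0.31. The *dcap-2* call was also lost without L1 array 2 or embryo array A. Both neighbours of *puf-8* fell to foreign control level (-1.63 for *C30G12.6* and -2.01 for *C30G12.1*), and both neighbours of *puf-9* rose (*dct-11* by 2.08 and *atat-2* by 0.86). By contrast, the neighbours of *puf-5*, *F54C9.7* and *F54C9.9*, rose by 3.71 and 0.51. Next to *puf-11*, *acp-6* rose by 3.51 while *htp-2*, a reported FBF target of the meiotic chromosome axis, fell by 2.27 to foreign control level. *pas-7*, beside *puf-12*, fell by 1.15, while *ZK945.4* on the other side differed by -0.17 and was not called.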

How the data were processed

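Total RNA of 3 fed L1 and 3 mixed embryo samples was labelled as biotinylated cRNA from 8 µg and hybridised to 1-colour Affymetrix arrays, per the labels' protocols. The deposited values are log2 expression values made by the authors with RMA, per the submitters' processing notes. The RMA version and whether both sets of arrays were processed jointly are not given in the sources used here. RMA equalises distributions and compresses low values, and the number of arrays limits the precision.

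Of 22625 probe sets, 77 controls were left out. Platform annotation gave 20766 probe sets 1 gene, 887 several and 895 none. Per gene, the probe set with the highest mean was used (17118 genes). Groups came from sample titles. Differences were fitted with limma 3.58.1 in R 4.3.3 (eBayes without trend, 2-sided); SE is moderated. Probe-set values come from a fit over 22548 probe sets. An exact permutation test served for gene pairs. The limma fit, but not the other steps, was tested on simulated data. Named genes were all members, the nanos genes, *gld-1*, *glp-1*, *hbl-1* and *fem-3*, and the 2 largest calls each way per list. Also named were the 2 genes with a gene class name most like each member, and neighbours by position. Members and lists were chosen with earlier results of these data known. The foreign control level, the lower limits from it and the leaving out of genes at that level were chosen after the data were seen. Unmatched list symbols were *eft-3*, *gls-1*, *larp-1*, *ntl-1*, *ntl-2*, *tob-1*, *nol-1*, *nol-2*, *nol-5*, *msp-10*, *vit-3* and *med-2*. Annotation coordinates were not used beyond gene order, since the build behind the array is not given. Alternatives were another quantile normalization, centring on medians or ribosomal protein genes, level filters, trend and robust settings, array weights, other probe set rules and leaving out arrays.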

Additional observations from a re-analysis of the deposited data

How the results depend on the processing

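The direction and call of each member held under every alternative that gave it a value, with the exception of *fbf-2*, which differed by 0.17 (limma adjusted p = 0.171) when probe sets that may match related genes were left out. That choice left 5 of 9 members, 2 of them lower and 2 higher. It left 7 lower among reported targets, 8 lower and 0 higher among other maternal RNA-binding genes, and 4 higher among nucleolar genes. Fewer genes had such a probe set, and over all genes 4487 were called higher and 3796 lower. The smaller list counts thus do not by themselves show a change of the lists. Centring on 75 ribosomal protein genes moved the median difference of all genes to -0.30, with 3900 genes higher and 9686 lower in place of 5685 and 5339, and called 6 nucleolar genes lower, while 3 PUF genes rose and 6 fell as before. With a filter at the 50th percentile of level, 7 members were kept and 3274 genes were called higher. Leaving out each array in turn gave 1 to 4 nucleolar genes called lower. Of 395 alternative values, 385 kept direction and call, or stayed within 1.5 times for counts. Part of these could hardly change, so the count overstates how far the alternatives tried the results. No pair could pass in any setting, and level filters and trend settings leave each difference as it was. For the 6 members with 1 probe set, the mean of probe sets is the main value. The number of arrays limits the precision, and *fbf-1* in both stages, *fbf-2* in embryos and *puf-11* in L1 lay at the foreign control level, where changes are compressed. No paired analysis was possible because L1 replicates are numbered and embryo replicates lettered, so the groups share no replicate numbers.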
